A study of Mus musculus with 6 samples.

Results

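The Fanconi anaemia core complex and the Fancd2-Fanci pair were followed as 10 genes, Fanca, Fancb, Fancc, Fance, Fancf, Fancg, Fancl and Fancm of the core complex and Fancd2 and Fanci of the pair. They were chosen by name, as the core complex and its substrate pair, and matched through the Entrez Gene number of their rows, and all 10 were found among 23185 named genes. Bone marrow hematopoietic stem cells (HSCs) were compared between WT and Merit40-/- mice on 6 Affymetrix Mouse Gene 2.0 ST arrays, 3 for each genotype. The cells were double sorted by flow cytometry as CD150+CD48- cells that lack lineage markers and carry Sca-1 and c-Kit (LSK), came from young mice of both genotypes and were neither cultured nor treated. Merit40 is encoded by Babam1. Strain, sex, the way the allele was made and the number of mice behind each array are not stated in the labels. P-values therefore measure the spread between these arrays.

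The Fanconi pathway repairs crosslinks between the strands of DNA at stalled replication forks. Fancm and its partners anchor the core complex on DNA, and the complex acts as a ubiquitin ligase with Fancl as its catalytic subunit. It attaches a single ubiquitin to Fancd2 and to Fanci, which then close around DNA as a clamp and bring in nucleases and recombination factors. In people, inherited loss of most of these genes can cause bone marrow failure, and HSCs are among the cells that suffer most from it. Merit40 belongs to the BRISC and BRCA1-A complexes, which cut a different signal, ubiquitin chains linked through lysine 63. The comparison asks what the loss of Merit40 does to the transcripts of freshly isolated HSCs, here those of the Fanconi ligase and its substrates.

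Levels are log2 values after RMA, which gives all arrays the same overall brightness, and differences are Merit40-/- minus WT on that log2 scale. Babam1 averaged 8.0 in WT (SD 0.079, n = 3) against 4.06 in Merit40-/- (SD 0.21, n = 3), and it was the only gene of the 23185 past an adjusted p of 0.05 in limma. Of the sorting markers, Slamf1 (CD150) stood at 8.05 and 8.23 and Kit at 10.96 and 11.06, above the median of all genes. The negative marker Cd48, at 5.42 and 5.39, also lay above that median, at percentile 54.9 of the mean level. Slamf1 was at percentile 87.9 and Kit at 99.7. Ly6a (Sca-1) was not analysed here. Granulocyte and monocyte genes were bright in both genotypes, with 11 of 12 above the median of all genes. S100a8 stood at 12.04 in WT and 11.94 in Merit40-/-, at percentile 99.9 of the mean level. Ngp stood at 10.79 and 10.81, at percentile 99.5. Csf1r, at 4.38 and 4.40, was the exception. Markers of muscle and osteoclasts stood apart on 2 arrays. In Merit40-/- replicate 1, 18 skeletal muscle genes averaged 2.76 above their WT mean, against -0.076 to 0.13 on the other 5 arrays (18 of 18 differences above 0, 0 past the threshold). In Merit40-/- replicate 3, 11 osteoclast genes averaged 0.95 above theirs, against -0.052 to 0.081 elsewhere (8 of 11 differences above 0, 0 past the threshold). Only part of this list was high there. On that array Ctsk read 7.94 (WT mean 3.76) and Acp5 7.91 (4.83), but Nfatc1 read 7.53 (7.54) and Itgb3 7.33 (7.70).

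None of the 10 Fanconi genes passed the test between the genotypes, in limma with Benjamini-Hochberg adjustment over all genes (0 of 10, where 0.00431% of all genes passed). The unadjusted p was under 0.05 for 1 of the 10, Fancg, and for 4.22% of all genes. The differences ran from -0.49 for Fancg to 0.13 for Fancc, with a median of -0.15 beside 0.0052 over all genes. They lay below 0 for 8 of the 10, compared with 48.5% of all genes. The 95% interval of the difference stayed within 2-fold in either direction for each of the 10, as it did for 96.4% of all genes. WT and Merit40-/- arrays were fully separated for 1 of the 10, again Fancg, lower in Merit40-/-, and for 4.22% of all genes in that direction. That share is too near the background to be read as a property of the group.

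**Figure D1:**
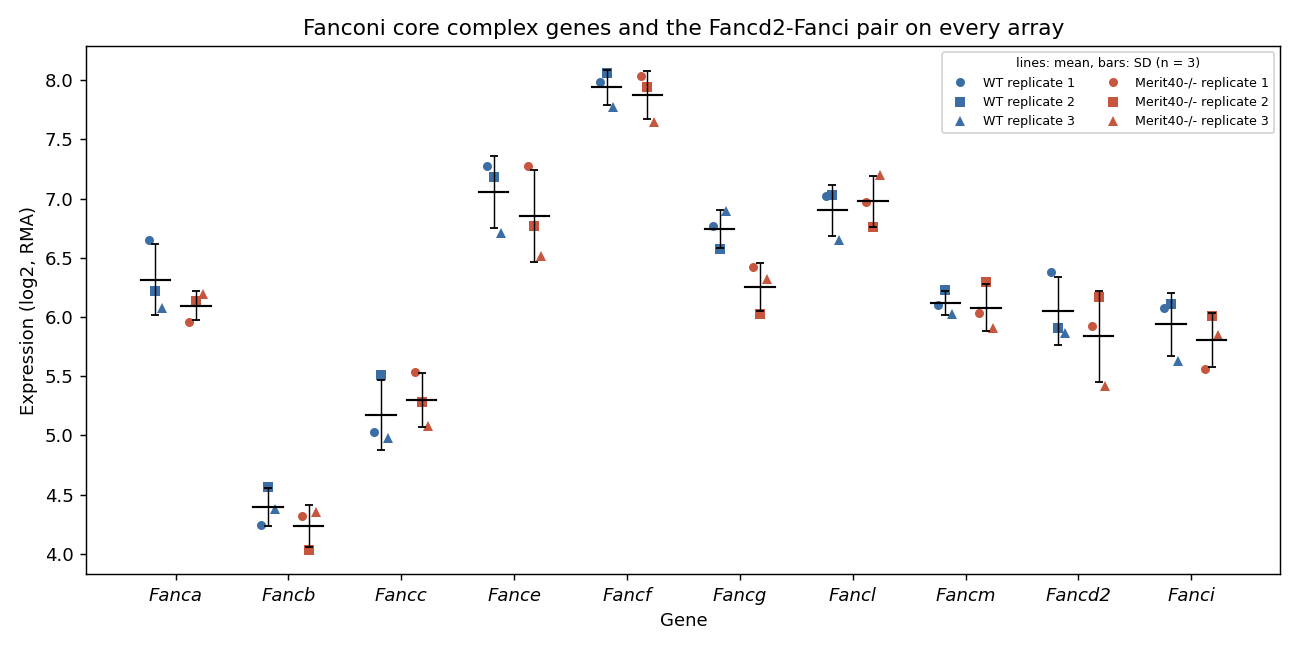
Log2 expression (y axis) of the 8 core complex genes and of Fancd2 and Fanci (x axis) on each of the 6 arrays. Points are arrays, with a shape for each replicate number, black lines are group means and bars are SD over 3 arrays. The WT and Merit40-/- points overlap for every gene but Fancg.

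Fancg, a core complex subunit that binds Fanca directly, had the lowest difference of the group. It read 6.77, 6.57 and 6.89 on WT replicates 1, 2 and 3, against 6.42, 6.02 and 6.32 on the Merit40-/- replicates. The lowest WT array thus lay above the highest Merit40-/- array. The WT mean was 6.74 (SD 0.16, n = 3) and the Merit40-/- mean 6.25 (SD 0.21, n = 3), a difference of -0.49 (SE 0.15, 95% interval -0.83 to -0.15) or 1.40-fold. Its unadjusted p was 0.0110 and its adjusted p 0.999 in limma, so the difference did not pass. A difference this low or lower was found for 1.07% of all genes. With each array left out in turn it ran from -0.58 to -0.38, the smallest without Merit40-/- replicate 2, its lowest array.

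Fanca, the partner of Fancg within the complex, read 6.65, 6.22 and 6.08 in WT and 5.96, 6.13 and 6.20 in Merit40-/-. Group means were 6.31 (SD 0.30, n = 3) and 6.09 (SD 0.12, n = 3), with a difference of -0.22 (SE 0.17, 95% interval -0.61 to 0.17). The genotypes overlapped, and 1 array, WT replicate 1, lay above all others. With 1 array left out, the Fanca difference ran from -0.34 without WT replicate 3 to -0.052 without WT replicate 1. Faap20, which stabilises Fanca in the complex, differed by -0.060 (SE 0.13).

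Promoter windows from RefSeq on GRCm38.p6, from 250 bases before to 50 bases after the start, were matched for 9 of the 10 genes. Fancd2 had no entry. Those of Fancg, Fancc and Fanci are shown because these genes had the lowest difference, the highest difference and, for Fanci, membership of the pair. Capitals mark the motifs found in either strand, and each window is printed in the direction of its gene. The Fancg window lies at chr4:43010252-43010551 (minus strand), that of Fancc at chr13:63431696-63431995 (minus strand) and that of Fanci at chr7:79392088-79392387 (plus strand).
Fancg: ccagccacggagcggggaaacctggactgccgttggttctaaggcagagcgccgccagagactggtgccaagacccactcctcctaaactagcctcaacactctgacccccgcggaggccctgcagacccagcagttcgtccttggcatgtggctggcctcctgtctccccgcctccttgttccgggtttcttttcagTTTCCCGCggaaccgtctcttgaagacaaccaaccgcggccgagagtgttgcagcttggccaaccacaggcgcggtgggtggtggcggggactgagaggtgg
Fancc: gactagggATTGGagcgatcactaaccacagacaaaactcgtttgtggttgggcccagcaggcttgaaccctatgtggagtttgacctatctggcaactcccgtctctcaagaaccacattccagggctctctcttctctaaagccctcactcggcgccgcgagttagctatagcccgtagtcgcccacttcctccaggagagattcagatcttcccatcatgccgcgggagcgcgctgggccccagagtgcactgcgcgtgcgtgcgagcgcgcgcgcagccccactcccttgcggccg
Fanci: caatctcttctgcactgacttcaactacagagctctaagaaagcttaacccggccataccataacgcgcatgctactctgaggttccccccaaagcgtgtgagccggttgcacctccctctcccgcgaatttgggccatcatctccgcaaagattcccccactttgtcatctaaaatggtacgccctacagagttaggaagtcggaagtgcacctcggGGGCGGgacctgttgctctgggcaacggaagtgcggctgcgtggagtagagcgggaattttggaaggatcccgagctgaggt
The Fancg window holds TTTCCCGC, a form of the E2F motif of replication genes, starting 52 bases before the start. No other of the 9 windows held this form, and neither TTTGGCGC nor TTTCGCGC, the other 2 E2F forms searched, occurred in any of them. Among 32851 promoter windows of the same length, 1.07% held TTTCCCGC and 1.84% held any of the 3 forms. The NF-Y motif CCAAT was found in 6 of the 9 windows (Fanca, Fancb, Fancc, Fance, Fancf and Fancm) and in 37.4% of all windows. The SP1 motif GGGCGG was also found in 6 (Fanca, Fancb, Fance, Fancf, Fanci and Fancm) and in 35.7% of all. The ETS motif CCGGAAG occurred in Fance alone among the 9 and in 8.86% of all. The CHR motif TTTGAA of mitotic genes (17.9% of all) and the NRF1 motif (4.6% of all) were in none of the 9. The Fancl window held none of these motifs. Both strands were searched, matches of different motifs did not overlap in the 9 windows, and a match describes letters only.

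Fancb, Fancl and Faap100 form the catalytic module of the ligase. Fancb read 4.24, 4.57 and 4.37 in WT and 4.32, 4.03 and 4.36 in Merit40-/-. Of the 10 genes it alone was dimmer than the median gene, a range in which RMA compresses differences, and its difference was -0.16 (SE 0.14, 95% interval -0.49 to 0.17). With 1 array left out, the Fancb difference ran from -0.24 without WT replicate 1 to -0.057 without Merit40-/- replicate 2, and it was -0.074 without WT replicate 2. Fancl read 7.02, 7.03 and 6.65 in WT and 6.97, 6.76 and 7.20 in Merit40-/-. Its highest array was a Merit40-/- array and its lowest a WT array, and its difference was 0.075 (SE 0.16, 95% interval -0.30 to 0.45). The sign of the Fancl difference turned without Merit40-/- replicate 3 (-0.035) or without WT replicate 3 (-0.050), and the difference was 0.18 without Merit40-/- replicate 2. Faap100 differed by 0.13 (SE 0.16), and by -0.019 without WT replicate 2. No gene of this module passed the test.

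Fancc, Fance and Fancf form the module that receives the Fancd2-Fanci substrate. Fancc read 5.03, 5.51 and 4.98 in WT and 5.54, 5.28 and 5.08 in Merit40-/-. It had the highest difference of the 10, 0.13 (SE 0.18, 95% interval -0.30 to 0.55), with WT replicate 2 and Merit40-/- replicate 1 nearly level at the top. The Fancc difference was 0.0087 without Merit40-/- replicate 1, where muscle genes were high, 0.030 without WT replicate 3 and 0.055 without WT replicate 1. It was 0.23 without Merit40-/- replicate 3 and 0.30 without WT replicate 2. Fance, which binds Fancd2, read 7.28, 7.18 and 6.71 in WT and 7.27, 6.76 and 6.52 in Merit40-/-. Replicate 1 of each genotype read almost the same, and the difference of -0.20 (SE 0.23, 95% interval -0.72 to 0.32) was smaller than its error. The Fance difference was -0.41 without Merit40-/- replicate 1, the muscle array, and -0.38 without WT replicate 3. It was -0.091 without WT replicate 1 and -0.034 without Merit40-/- replicate 3, the array where some osteoclast genes were high. Fancf, an adaptor without introns, read 7.98, 8.06 and 7.77 in WT and 8.04, 7.94 and 7.65 in Merit40-/-. Its difference of -0.063 (SE 0.15, 95% interval -0.40 to 0.27) turned to 0.052 without Merit40-/- replicate 3 and was -0.14 without WT replicate 3.

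Fancm, the DNA translocase that anchors the complex, had the difference nearest to 0. It read 6.10, 6.23 and 6.03 in WT and 6.03, 6.30 and 5.91 in Merit40-/-, so that the Merit40-/- arrays held both the highest and the lowest value. The difference was -0.042 (SE 0.14, 95% interval -0.36 to 0.28), and it was 0.043 without Merit40-/- replicate 3, 0.012 without WT replicate 2 and -0.15 without Merit40-/- replicate 2. None of its 3 partners passed the test. Faap24 differed by -0.20 (SE 0.15), Cenps by -0.23 (SE 0.16) and Cenpx by -0.021 (SE 0.20), the last turning to 0.11 without Merit40-/- replicate 2 and to 0.15 without WT replicate 1.

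Fancd2 and Fanci, the clamp that the ligase modifies, both had differences below 0 that were no larger than their SE. Fancd2 read 6.38, 5.91 and 5.86 in WT and 5.92, 6.17 and 5.42 in Merit40-/-. Merit40-/- replicate 2 lay above 2 of the 3 WT arrays, and the difference was -0.21 (SE 0.22, 95% interval -0.72 to 0.29). It was -0.38 without Merit40-/- replicate 2 and -0.31 without WT replicate 3, but -0.0042 without Merit40-/- replicate 3 and -0.049 without WT replicate 1. Fanci read 6.08, 6.11 and 5.63 in WT and 5.56, 6.01 and 5.85 in Merit40-/-, with a difference of -0.13 (SE 0.18, 95% interval -0.54 to 0.27). The Fanci difference was -0.29 without WT replicate 3 and -0.23 without Merit40-/- replicate 2, but -0.011 without Merit40-/- replicate 1, -0.048 without WT replicate 2 and -0.064 without WT replicate 1. Single arrays thus moved either difference in both directions without turning its sign.

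The spread of the 10 genes between WT arrays was as large as their mean difference between the genotypes (-0.13). Relative to the WT mean of each gene, they averaged 0.090, 0.075 and -0.17 on WT replicates 1, 2 and 3, and -0.061, -0.12 and -0.21 on the Merit40-/- replicates. WT replicate 3 thus lay below Merit40-/- replicates 1 and 2. On WT replicate 3, 9 of the 10 genes were below their WT mean, with Fancg as the exception, and on Merit40-/- replicate 3 it was also 9 of 10, with Fancl as the exception. Merit40-/- replicate 3 held the lowest value of 4 of the 10 genes. The median difference of the 10 was -0.035 without that array and -0.051 without WT replicate 1. It was -0.061 without WT replicate 2 and -0.23 without WT replicate 3. The number of genes with a difference below 0 ran from 7 to 9 of 10 with 1 array left out.

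Fancd2, Fanci and other genes of the pathway are known to be transcribed mostly in cycling cells, so lists of cell cycle genes are given beside them. Fancd2 and Fanci together averaged 0.23, 0.014 and -0.25 above or below their WT mean in WT and -0.25, 0.094 and -0.36 in Merit40-/-. The 17 mitosis genes averaged 0.057, 0.052 and -0.11 in WT and -0.38, 0.018 and -0.35 in Merit40-/-. Both list means were low on Merit40-/- replicates 1 and 3 and near or above the WT mean on replicate 2. For the pair, however, WT replicate 3 was as low as Merit40-/- replicate 1. Its genes also differed from each other. On Merit40-/- replicates 1 and 3, Fancd2 stood at -0.13 and -0.63 from its WT mean, and Fanci at -0.38 and -0.090. The 8 core complex genes differed from the order of the list means, at 0.054, 0.090 and -0.14 in WT and -0.013, -0.18 and -0.18 in Merit40-/-. The 17 replication genes averaged 0.11, 0.0048 and -0.11 in WT and -0.33, -0.051 and 0.069 in Merit40-/-. Differences were below 0 for 17 of the 17 mitosis genes (median -0.21) and for 13 of the 17 replication genes (median -0.14), beside 48.5% of all genes. In limma 0 genes of either list passed the test (2 and 1 at an unadjusted p under 0.05, beside 4.22% of all genes). Arrays were fully separated in the lower direction for 4 mitosis genes and 1 replication gene, beside 4.22% of all genes. In the higher direction this held for 0 genes of either list. The motor gene Cenpe was the lowest of the mitosis list at -0.42 (SE 0.17) and Cenpf the highest at -0.047 (SE 0.16), or 0.063 without Merit40-/- replicate 3 and 0.015 without WT replicate 2. Among the replication genes the helicase factor Cdc45 was the lowest at -0.46 (SE 0.24) and the licensing factor Cdt1 the highest at 0.20 (SE 0.16). The Cdc45 difference ran from -0.72 without Merit40-/- replicate 2 to -0.26 without Merit40-/- replicate 1, and that of Cdt1 from 0.077 without Merit40-/- replicate 3 to 0.33 without Merit40-/- replicate 1. Without Merit40-/- replicate 1 the median of the replication list was 0.024. The part of the cell cycle, or of the muscle and osteoclast signals on the same arrays, in the Fanconi values was not tested. In sorted cells, fewer cells in cycle and less transcript per cell cannot be told apart.

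**Figure D2:**
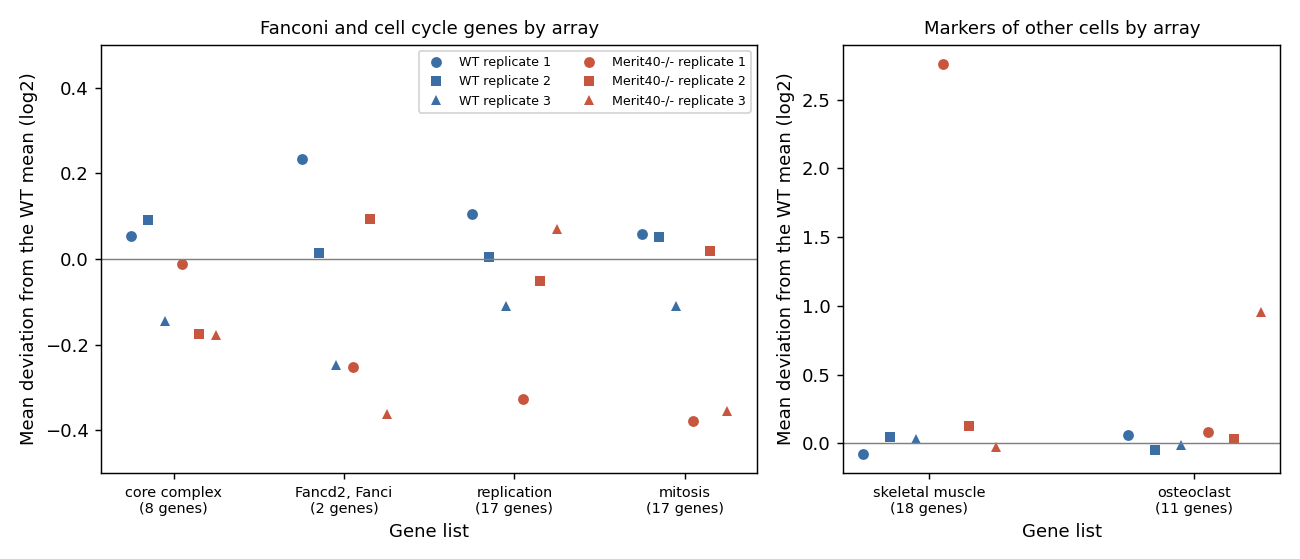
Mean deviation of each gene list from its own WT mean (y axis, log2) by list (x axis), with 1 point for each array. On the left, the means of Fancd2 with Fanci and of the mitosis genes are low on Merit40-/- replicates 1 and 3. They are near or above 0 on Merit40-/- replicate 2. The mean of the pair is as low on WT replicate 3 as on Merit40-/- replicate 1. On the right, the muscle genes stand at 2.76 on Merit40-/- replicate 1 and the osteoclast genes at 0.95 on replicate 3.

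The partners of the core complex and the enzymes of its ubiquitin cycle did not pass the test in limma either (0 of 10 genes). At an unadjusted p under 0.05 in limma there were 0, beside 4.22% of all genes. Differences were below 0 for 7, beside 48.5% of all genes, with a median of -0.13. Ube2t, the ubiquitin-conjugating enzyme that works with Fancl, had the lowest difference. It read 7.17, 7.44 and 6.99 in WT and 6.78, 6.35 and 7.16 in Merit40-/-. Merit40-/- replicate 3 lay within the WT range, and the difference was -0.43 (SE 0.22, 95% interval -0.93 to 0.061). It was -0.63 without that array and -0.23 without Merit40-/- replicate 2. Usp1 and Wdr48, which together take the ubiquitin off Fancd2, differed by 0.061 (SE 0.16) and 0.071 (SE 0.14). Usp1 turned to -0.097 and Wdr48 to -0.015 without Merit40-/- replicate 2, and Usp1 to -0.018 without WT replicate 3. The chromatin ligases Uhrf1 and Rfwd3 differed by -0.27 (SE 0.17) and -0.21 (SE 0.28), and Rfwd3 by 0.046 without Merit40-/- replicate 3. The median of the list was -0.059 without WT replicate 2.

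Of 17 genes that act after the clamp is closed, 15 were measured and 0 passed in limma (1 at an unadjusted p under 0.05, beside 4.22% of all genes). Differences were below 0 for 7 and above 0 for 8, beside 48.5% of all genes below 0, with a median of 0.0046. The lowest was Mad2l2, a subunit of the translesion polymerase zeta. It read 8.92, 8.98 and 8.98 in WT and 8.83, 8.57 and 8.57 in Merit40-/-, without overlap. Its difference was -0.31 (SE 0.12), with an unadjusted p of 0.0356 and an adjusted p of 0.999 in limma. Rev3l, the catalytic subunit of that polymerase, differed by -0.091 (SE 0.21), or 0.090 without WT replicate 2, and its partner Rev1 by 0.051 (SE 0.12). The nuclease gene Ercc4 differed by 0.16 (SE 0.15), its scaffold Slx4 by -0.16 (SE 0.12) and the nuclease gene Dclre1a by 0.0046 (SE 0.15), which turned to -0.0061 with quantile normalization, to -0.018 with array weights and to -0.026, -0.023 and -0.14 without Merit40-/- replicate 1, Merit40-/- replicate 3 or WT replicate 3. The highest was the recombination gene Rad51c at 0.20 (SE 0.14). The arrays of Palb2, a recombination scaffold, did not overlap in the higher direction, at 5.93, 5.84 and 5.93 in WT and 5.94, 5.96 and 5.98 in Merit40-/- (difference 0.059, SE 0.11). In this list 1 gene of 15 was thus fully separated in each direction, beside 4.22% of all genes in the lower and 4.84% in the higher direction. These counts are too near the background to be read as a property of the list. With 1 array left out the median of the list ran from -0.026 to 0.071, below 0 without Merit40-/- replicate 1 or replicate 3.

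**Figure D3:**
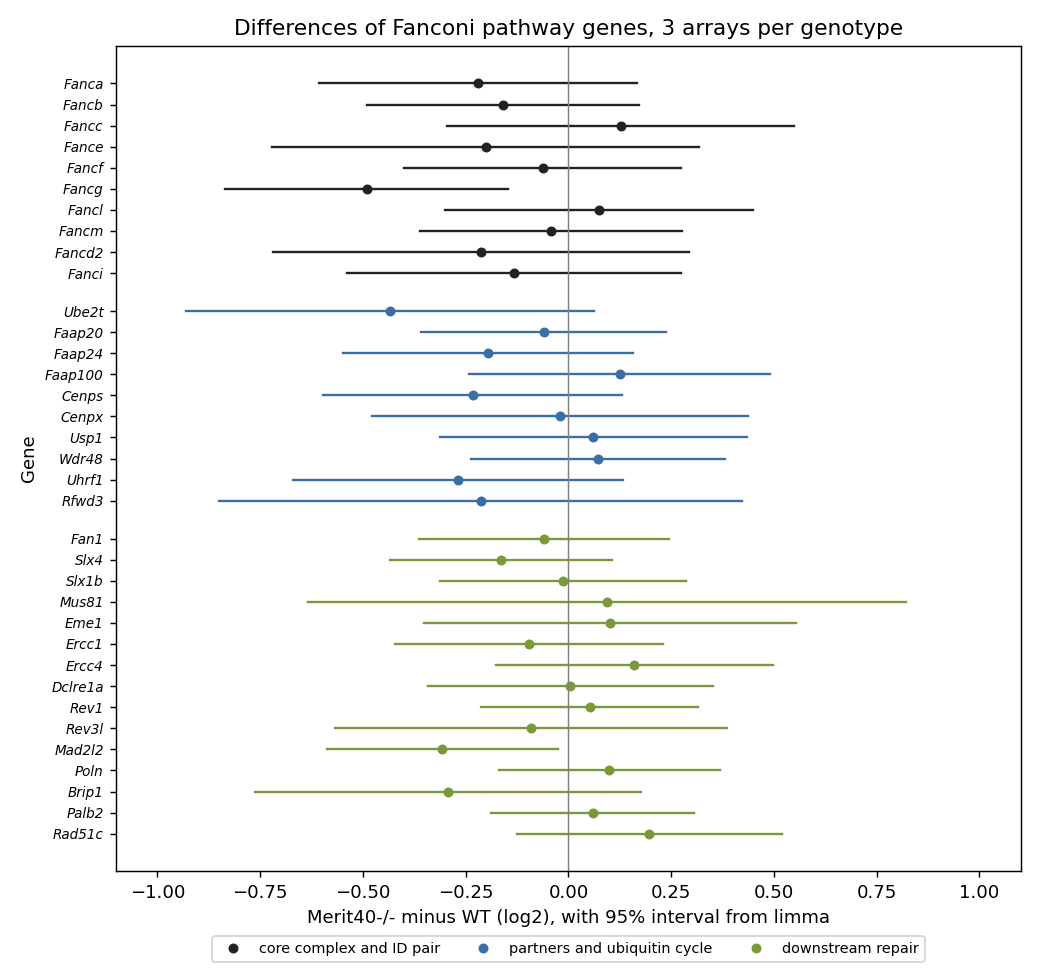
Difference of each gene between Merit40-/- and WT (x axis, log2, Merit40-/- minus WT) for the 10 core complex and pair genes, 10 partners and ubiquitin cycle genes and 15 downstream repair genes (y axis). Points are differences of means over 3 arrays per genotype and lines are 95% intervals from limma. Of the 35 intervals only those of Fancg and Mad2l2 leave out 0, and neither gene passed after adjustment.

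Upstream of the complex, 0 of 11 genes of replication stress signalling passed in limma (1 at an unadjusted p under 0.05, beside 4.22% of all genes). Differences were below 0 for 6, beside 48.5% of all genes, with a median of -0.0100. The lowest was Rpa3, the small subunit of the protein that coats single-stranded DNA. It read 7.41, 7.48 and 7.40 in WT and 6.84, 7.05 and 7.03 in Merit40-/-, without overlap, at a difference of -0.45 (SE 0.12) and an unadjusted p of 0.00444 (adjusted p = 0.999 in limma). Rpa2, of the same protein, was the highest at 0.17 (SE 0.16). Rpa3 was the only 1 of the 11 genes with fully separated arrays in the lower direction, beside 4.22% of all genes. These counts are too near the background to be read as a property of the list. The median of the signalling list was -0.14 without WT replicate 3 and 0.033 without Merit40-/- replicate 1, and it was also above 0 without WT replicate 2.

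Aldehydes are a natural source of the crosslinks that this pathway repairs, and stem cells clear them with dehydrogenases. Of the 8 genes of the aldehyde clearance list 0 passed in limma (1 at an unadjusted p under 0.05, beside 4.22% of all genes). Differences were above 0 for 5 and below 0 for 3, beside 48.5% of all genes below 0, with a median of 0.11. The highest was Esd, which hydrolyses S-formylglutathione, the product that Adh5 makes from formaldehyde. It read 7.38, 7.08 and 7.27 in WT and 7.54, 8.19 and 7.72 in Merit40-/-, without overlap. The difference was 0.57 (SE 0.18), with an unadjusted p of 0.0134 and an adjusted p of 0.999 in limma, and it was 0.39 without Merit40-/- replicate 2. The arrays of 3 of the 8 genes did not overlap in the higher direction, Esd, Aldh1a1 and Aldh3a2, where 4.84% of all genes did so. Those of 1 gene, Aldh7a1, did not overlap in the lower direction, with a difference of -0.21 (SE 0.13). Aldh1a1 differed by 0.26 (SE 0.12) and Aldh3a2 by 0.26 (SE 0.12). Aldh2, the main mitochondrial acetaldehyde dehydrogenase, differed by 0.13 (SE 0.11), Aldh9a1 by 0.10 (SE 0.15) and the formaldehyde dehydrogenase gene Adh5 by -0.074 (SE 0.14). The alcohol dehydrogenase gene Adh1, the lowest of the list, differed by -0.28 (SE 0.19). It was dimmer than the median gene, at percentile 17.1 of the mean level. Without WT replicate 1 the median of the list was 0.053, and without WT replicate 2 the Adh5 difference was 0.041.

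The genes whose values followed the mean of the 10 most closely over the 6 arrays were ranked by Pearson's r among 11584 brighter genes. They were Trim28 (r = 0.982), a corepressor of zinc finger proteins, AA467197 (r = 0.977), Bend5 (r = 0.975), the mitotic kinesin Kif2c (r = 0.974) and the Toll-like receptor adaptor Tirap (r = 0.970). Of the genes ranked, 102 reached an r of 0.9. These are the highest of many values over only 6 arrays, which share 1 normalization, and they are a description without a test. Kif2c read 7.10, 6.93 and 6.31 in WT and 6.54, 6.51 and 5.99 in Merit40-/-, and, as for the mean of the Fanconi genes, replicate 3 was the lowest of each genotype.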

How the data were processed

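The deposited values are log2 expression values, and the submitters' processing notes credit them to RMA and affy. Chip definition and genome build: not given in the sources used here. Of 25206 probe sets on 6 arrays, 23185 carried exactly 1 symbol, all matched by Entrez number to RefSeq (GRCm38.p6), 0 carried several, and the other 2021 have no name here. They were tested without a filter in R 4.3.3 using limma 3.58.1 (linear model on genotype alone, moderated by eBayes, 2-sided tests), Benjamini-Hochberg adjustment and a threshold of 0.05. The procedure was tested on simulated data. The members and gene lists were chosen with earlier results of these data known. The text names the 10 members, Babam1, the highest and lowest of each pathway and cell cycle list, up to 6 of the brightest genes of 3 lists and the 5 genes most alike by r. Other members of the lists (such as Faap20, Faap24, Palb2, Aldh7a1, Kit, S100a8 and Acp5) were named after their values were seen. Further lists held markers of other blood cells. The alternatives were a replicate block, an intensity trend, array weights, 3 scalings, 2 filters on dim genes, all probe sets, and each array left out. Array numbers limit the precision.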

Additional observations from a re-analysis of the deposited data

How the results depend on the processing

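Under all 15 alternatives 1 gene, counted over all genes tested, and 0 Fanconi genes passed the threshold. Of 149 recomputed differences of the Fanconi genes, 144 kept their sign and 5 turned, all with an array left out. With the replicate number as a block, the replicate block fit gave Fancg -0.49 at an unadjusted p of 0.00844 (adjusted p = 1.000 in limma, 0.966 to 1.000 over the alternatives), and 1 gene in all passed. Same-numbered arrays deviated together at r of -0.048, -0.0027 and 0.044 across genes. Differently numbered arrays ran from -0.066 to 0.070, so these values show no pairing by number. They cannot decide whether same-numbered arrays were prepared together, because a shared step need not move all genes and the labels do not state it. With 1 array left out, the lowest and highest differences were -0.14 and 0.052 for Fancf, -0.050 and 0.18 for Fancl, -0.15 and 0.043 for Fancm, -0.097 and 0.14 for Usp1, -0.015 and 0.16 for Wdr48, -0.44 and 0.046 for Rfwd3, -0.019 and 0.21 for Faap100, and -0.19 and 0.15 for Cenpx. They were -0.32 and 0.090 for Rev3l, -0.14 and 0.080 for Dclre1a, -0.18 and 0.041 for Adh5, -0.19 and 0.063 for Cenpf, and -0.12 and 2.06 for Ctsk. Dclre1a was -0.018 with array weights and -0.0061 with quantile normalization. Without the dimmest 50% of genes, 9 Fanconi genes were left, with 7 below 0 and a median of -0.13.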

Other observations

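No marker gene of other blood cells or of HSCs passed the test in limma. An unadjusted p under 0.05 in limma was found for 3 erythroid, 1 granulocyte, 1 lymphoid and 0 HSC genes, beside 4.22% of all genes. Over all genes, 48.5% of differences lay below 0. Of 10 erythroid genes, 9 had differences below 0 (median -0.24), of 12 granulocyte and monocyte genes 4 (median 0.046) and of 12 lymphoid genes 7 (median -0.014). Of 10 HSC genes, 3 lay below 0 (median 0.12). Of 4 genes that mark cells outside the sort or later progenitors, 2 did (median 0.061). With 1 array left out, the medians ran from -0.43 to -0.14 for the erythroid, -0.100 to 0.18 for the granulocyte and monocyte, -0.067 to 0.095 for the lymphoid, 0.041 to 0.14 for the HSC and -0.033 to 0.13 for the progenitor genes. The granulocyte median turned below 0 without WT replicate 3, Merit40-/- replicate 1 or Merit40-/- replicate 2, the lymphoid median above 0 without WT replicate 1, and the progenitor median below 0 without WT replicate 3 or Merit40-/- replicate 1. The erythroid extremes were without WT replicates 3 and 1, and the HSC median was lowest without Merit40-/- replicate 1. Among 8 genes of the BRISC and BRCA1-A complexes, Babam1 was the only 1 past the threshold.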
